A study of Drosophila melanogaster with 4 samples.

Results

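The nuclei described here were selected as T4 and T5 type neurons of the optic lobe, on 5 genes. A nucleus was taken when it held at least 1 UMI (a unique molecular identifier, 1 counted RNA molecule) of TfAP-2 and at least 1 of acj6, with 0 UMIs of Gad1, VGlut and repo. Of 69415 nuclei, 847 (1.22%) met this rule. They were 266 of 19188 in female controls, 120 of 14895 in male controls, 292 of 25332 in NaAsO2-exposed females and 169 of 10000 in NaAsO2-exposed males. TfAP-2 encodes an AP-2 family transcription factor (chromosome arm 3L, 21586828 to 21613349, release 6) and acj6 a POU domain transcription factor (chromosome X, 15350239 to 15379064). Gad1 makes GABA, VGlut loads glutamate into vesicles and repo marks most glia, so the 3 zeros remove nuclei in which any of these was seen. Of 2530 nuclei that held both transcription factors, 1683 were removed by the zeros.

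The data were single-nucleus RNA counts from whole Drosophila melanogaster brains of CSB, the w1118 Canton S (B) laboratory strain, so that every group carries this white eye colour allele, with 10 brains pooled into a single library for each sex and treatment. The flies were adults a few days old when exposure began. Control flies had 0 µM and exposed flies 250 µM NaAsO2, sodium arsenite, and both were dissected on day 6. The 4 groups were therefore female control, male control, female NaAsO2 and male NaAsO2, each with 1 library, and treatment cannot be told apart from library within a sex. No p-value is given for exposure: intervals on its ratios cover counting error only, and UMIs count molecules of 1 pool of brains.

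T4 and T5 neurons are the first cells of the fly visual pathway whose responses depend on the direction of motion. T4 dendrites lie in the medulla and respond to moving bright edges, T5 dendrites lie in the lobula and respond to moving dark edges, and subtypes of both project to separate layers of the lobula plate according to the direction they prefer. They release acetylcholine, so ChAT, which makes it, and VAChT, which loads it into vesicles, are markers of their transmitter. SoxN and Sox102F are Sox family transcription factors used in their maturation, dac is a transcription factor of the progeny that gives rise to them, and bi and grn are transcription factors found in different subtypes.

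The nuclei that met the rule held a median of 2516, 2069.5, 1468 and 2747 UMIs in female controls, male controls, exposed females and exposed males, in the order used for all lists of 4 values below. The corresponding medians over whole libraries were 2222, 1827, 1374 and 2666, so the selected nuclei were deeper in each library. The exposed male library held no nucleus under 1766 UMIs, while the shallowest nucleus had 500 in each of the other libraries. Of the 847 nuclei, 13 (1.53%) had a cell barcode that also occurred in another library, and 0 barcodes were shared between nuclei that met the rule. A score against simulated doublets marked 99 of them, which were kept in the main analysis. The male control library stood apart in RNA of other tissues: outside the nuclei that met the rule, its 8 photoreceptor genes summed to 1751 CPM (UMIs scaled to the same total for every library) against 825 to 959.6 in the other libraries, and its 7 fat body and hemocyte genes to 1770.2 against 514 to 963.

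The 2 genes of the rule were seen at low counts. TfAP-2 was represented by exactly 1 UMI in 671 of the 847 nuclei (79.2%), and both genes by exactly 1 UMI in 225 (26.6%). At least 2 UMIs of each gene were seen in 128. Just outside the rule, 1588 nuclei with the 3 zeros held TfAP-2 without acj6, and 5825 held acj6 without TfAP-2. Within the nuclei that met the rule, TfAP-2 stood at 458, 484, 710.4 and 417 CPM and acj6 at 1272, 1059.6, 1529.7 and 1206 CPM, values that the rule itself set.

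acj6 was also detected in nuclei that did not meet the rule. To compare classes at equal depth, each nucleus was thinned to 1000 UMIs and shallower nuclei were left out. This left out 1718 female control, 2417 male control, 7013 exposed female and 0 exposed male nuclei. In female controls, acj6 was found in 24.1% (95% interval 20.6 to 27.9) of nuclei with the 3 zeros and a TfAP-2 UMI, and in 19.6% (95% interval 18.8 to 20.4) of those with the 3 zeros and no TfAP-2 UMI. The corresponding shares were 18.8% and 17.2% in male controls, 22.0% and 18.2% in exposed females, and 26.7% and 20.6% in exposed males. The share was higher beside TfAP-2 in each library, and the intervals of both classes overlapped in male controls and exposed females. Nuclei with a repo UMI, mostly glia, carried acj6 in 11.3 to 16.0% of cases, and nuclei with a Gad1 UMI in at most 17.7%.

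**Figure D1:**
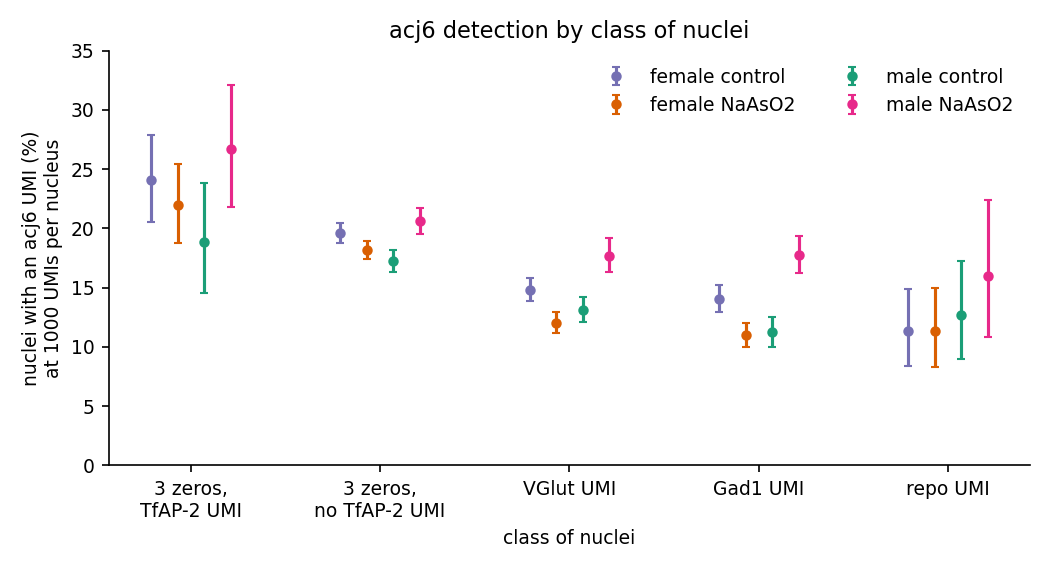
Share of nuclei with an acj6 UMI, in percent, after thinning to 1000 UMIs, for nuclei with 0 UMIs of Gad1, VGlut and repo (3 zeros) with and without a TfAP-2 UMI, and for nuclei with a VGlut, Gad1 or repo UMI. Points are the 4 libraries and bars exact binomial 95% intervals of counting error; the intervals of the first 2 classes overlap in male controls and exposed females, and acj6 is detected in every class.

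The pair of genes was seen together in glial and GABAergic nuclei as well. At 1000 UMIs both genes were found in 1.39, 0.840, 1.34 and 1.51% of nuclei with the 3 zeros. In nuclei with a repo UMI the shares were 0.758, 0, 0.526 and 1.18%, where the 0 of 268 nuclei in male controls allows up to 1.37%. In nuclei with a Gad1 UMI they were 0.872, 0.619, 1.08 and 0.850%. In nuclei with a VGlut UMI they were 0.783, 0.803, 1.04 and 0.718%. The interval for nuclei with the 3 zeros lay above that for VGlut nuclei in female controls (1.16 to 1.64% against 0.555 to 1.07%) and in exposed males (1.20 to 1.87% against 0.439 to 1.11%), and overlapped it in the other 2 libraries. Median depths before thinning of the classes with the 3 zeros, a Gad1 UMI, a VGlut UMI and a repo UMI lay within 1654 to 2826 UMIs over the 4 libraries.

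The selected nuclei did not form a cluster. All 69415 nuclei were grouped without the 5 genes of the rule, the T4 and T5 factors and the cholinergic genes. The 847 nuclei fell into 54 of 63 clusters. The cluster with most of them, cluster 4, held 111 of them among 3592 nuclei (3.09%), and had Fs, CG8916 and erm as leading genes and SoxN at 1204 CPM. Cluster 24 had the highest share, 54 of 878 nuclei (6.15%, 95% interval 4.65 to 7.95), with sosie, RunxB and CG9896 leading, and the highest acj6 level at 976 CPM. Cluster 15, led by sosie, Pka-C3 and Tk and with bsh among its 10 leading genes, held 48 of 1610 (2.98%). The 5 clusters with the most selected nuclei held 45.0% of them and 24.5% of all nuclei.

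Across the 63 clusters TfAP-2 ranged from 18.4 to 122 CPM, with a median of 44.0, and acj6 from 32.8 to 976 CPM, with a median of 182. Of the clusters, 0 had 3 or more of the markers SoxN, Sox102F, dac, bi and grn at 1.5 times the level over all nuclei. Because bi and grn are found in different subtypes, a cluster of mixed subtypes could miss this limit. Cluster 4 had SoxN at 1204, Sox102F at 405, dac at 90.1, bi at 937 and grn at 74.2 CPM. Clusters low in neuronal genes held 39 of the selected nuclei (4.60%) and 11.5% of all nuclei. Clusters 10 and 20, with glial genes at 3.92 and 4.92 times the level over all nuclei, were not among these and held 18 and 13 selected nuclei. Because the nuclei spread over 54 of the 63 clusters, the label of T4 and T5 neurons was not borne out as 1 cell type. The nuclei are called TfAP-2 and acj6 positive nuclei from here on. Clusters were rebuilt from the counts, so their limits may differ from the study's own.

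**Figure D2:**
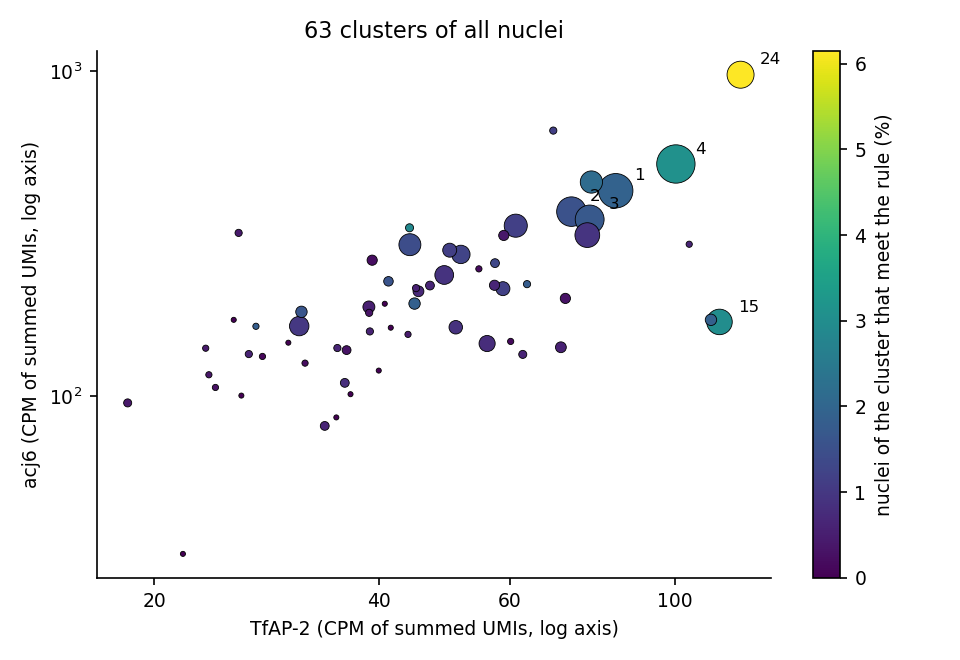
Level of TfAP-2 (x axis) and acj6 (y axis) in the 63 clusters, in CPM of summed UMIs on log axes. Area grows with the number of TfAP-2 and acj6 positive nuclei in a cluster, colour gives their share in percent and numbers name the 6 clusters with the most; the nuclei spread over a continuous range of levels, with cluster 24 at the top right.

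Although from many clusters, the TfAP-2 and acj6 positive nuclei carried more of several transcription factors than unselected ChAT positive nuclei of the same libraries. The comparison class, called other cholinergic nuclei below, was 4826 nuclei with a ChAT UMI and 0 UMIs of TfAP-2, acj6, Gad1, VGlut and repo. The rule did not use ChAT, so this name does not mark the selected nuclei as cholinergic. After thinning, ChAT was found in 76 of 403 selected nuclei (18.9%). By library the shares were 18.9, 18.2, 17.0 and 22.2%. Unselected nuclei with 0 UMIs of Gad1, VGlut and repo gave 19.5, 19.3, 18.6 and 15.9%. VAChT was higher, at 54.5, 49.1, 50.4 and 45.7% against 41.3, 36.0, 39.0 and 34.3%. UMIs were summed per library and class and 5942 genes were fitted with edgeR's quasi-likelihood test, with library as a block and Benjamini-Hochberg adjustment. A gene was called at an adjusted p under 0.05 and at least 1.5-fold. Higher in the selected nuclei were 71 genes (1.19% of those fitted) and lower were 98 (1.65%). DESeq2 called 46 and 33, and edgeR without the exposed female library called 47 and 57. The pools of brains are the replicates here, so n = 4 libraries in each class.

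Of the 5 T4 and T5 factors outside the rule, 3 rose and 0 fell, with a median log2 difference of 0.62 against -0.0056 over all genes fitted. SoxN (chromosome arm 2L, 8825645 to 8829670) stood at 860.4, 1023, 898 and 961 CPM in the selected nuclei and 409.8, 498, 412 and 466 CPM in other cholinergic nuclei. Each library of the selected nuclei was above each library of the others, a log2 difference of 1.12 (edgeR, adjusted p = 1.42e-11). Sox102F stood at 285, 363, 350.3 and 488 CPM against 223, 186, 228 and 280.2 CPM, also without overlap (log2 0.71, edgeR adjusted p = 1.09e-05). For bi the values were 1059, 579, 1071 and 987 CPM against 705, 445, 730.4 and 604 CPM. Here the male control value of the selected nuclei lay inside the range of the others, although each library moved the same way (log2 0.62, edgeR adjusted p = 2.08e-07), and the 1.5-fold limit was missed at log2 0.57 without female controls and 0.55 without exposed males. The remaining factors were not called: dac was at 145, 80.7, 119 and 126 CPM against 163, 122, 171 and 140.4 CPM (edgeR adjusted p = 0.184), and grn at 64.3, 67.3, 73.2 and 77.0 CPM against 70.4, 39.8, 55.3 and 50.6 CPM (edgeR adjusted p = 0.203).

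Neither Sox gene was highest in the clusters that held most of the selected nuclei, but both were high in cluster 4, which held 111 of them. Cluster 4 was at rank 2 of the 47 largest clusters for SoxN (1204 CPM, median 486) and at rank 3 for Sox102F (405 CPM, median 166). Cluster 2, with 65 selected nuclei, lay below both medians, at 286 and 163 CPM. Among the 47 largest clusters, SoxN was highest in cluster 26 at 1589 CPM, whose leading genes include wrapper, a marker of cortex glia. Sox102F was highest in cluster 27 at 1043 CPM, led by Eaat1, a glutamate transporter of astrocyte-like glia. The smaller cluster 52, of 175 nuclei, had SoxN at 2178 CPM. Clusters 26 and 27 held 3 and 4 selected nuclei. Of 7 glial genes, 0 were called by edgeR, 0 by DESeq2 and 1 had an unadjusted p under 0.05, and Eaat1 stood at 352, 215, 228 and 163 CPM against 469, 488, 255 and 292 CPM. With the clusters low in neuronal genes left out, an alternative chosen after seeing the data, SoxN rose with a log2 difference of 1.19 and Sox102F with 0.66. That alternative kept clusters 27 and 10, where neuronal genes were at 0.881 and 1.02 of the level over all nuclei. Glial genes there were at 10.2 and 3.92 times that level, and a glial part in these differences was not tested. At 1000 UMIs a SoxN UMI was found in 45.7% of the selected nuclei (95% interval 40.7 to 50.7), 31.6% of other cholinergic nuclei and 36.4% of repo positive nuclei.

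The 10 largest increases among called genes with at least 50 CPM were led by transcription factors. fkh, a forkhead domain factor (chromosome arm 3R, 28580976 to 28585264), stood at 139, 118, 196 and 158 CPM against 42.5, 35.2, 36.9 and 30.4 CPM (log2 2.11, edgeR adjusted p = 9.83e-09). Drgx, a homeodomain factor (chromosome arm 2L, 3662745 to 3692114), stood at 279, 343, 356 and 312 CPM against 107, 92.1, 74.7 and 67.7 CPM (log2 1.95, edgeR adjusted p = 2.42e-09). Both were without overlap between the classes. Lim3, a LIM homeodomain factor of neurons, rose by 1.37 on the log2 scale, to 178, 155, 202 and 184 CPM against 67.6, 89.8, 64.8 and 74.6 CPM, and zld, a zinc finger pioneer factor of the early embryo, by 1.25, to 214, 155, 271 and 210.0 CPM against 102, 79.6, 118 and 72.1 CPM. SoxN was the last of the 10. The others were SiaT, a sialyltransferase used in neurons (198, 192, 237 and 236 CPM against 70.4, 66.2, 74.1 and 94.2 CPM), CNMaR, the receptor of the CNMamide neuropeptide (210.4, 246, 259 and 242 CPM against 87.2, 108, 89.6 and 83.5 CPM), CG8916, a subunit related to GABA-gated chloride channels (log2 1.47), CG14082 (log2 1.19) and the noncoding RNA lncRNA:CR43126 (log2 1.71), whose reads could include an overlapping gene because the strand rule of the counting is not stated.

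Each of these genes was found at some level in all of the 47 largest clusters. fkh reached 166 CPM in cluster 40, which held 1 selected nucleus, and 150.3 CPM in cluster 24. Among the 47 largest clusters, Drgx was highest in cluster 25 at 934 CPM, with 1 selected nucleus. Its leading genes included Tret1-1, a trehalose transporter of surface glia. In the same 47 clusters zld and CG14082 were highest in cluster 24, at 224 and 355 CPM, where the share of selected nuclei was also highest. CNMaR was highest in cluster 4 at 191 CPM and SiaT in cluster 15 at 210 CPM, with 111 and 48 selected nuclei. Among the 847 selected nuclei, a UMI of SoxN was found in 522, of Drgx in 333 and of fkh in 219, SoxN with Drgx in 246, and fkh with Drgx in 98. A UMI each of SoxN, Sox102F and bi was found in 132 (15.6%), and none of SoxN, fkh, Drgx, Lim3, bi and Sox102F in 58 (6.85%).

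**Figure D3:**
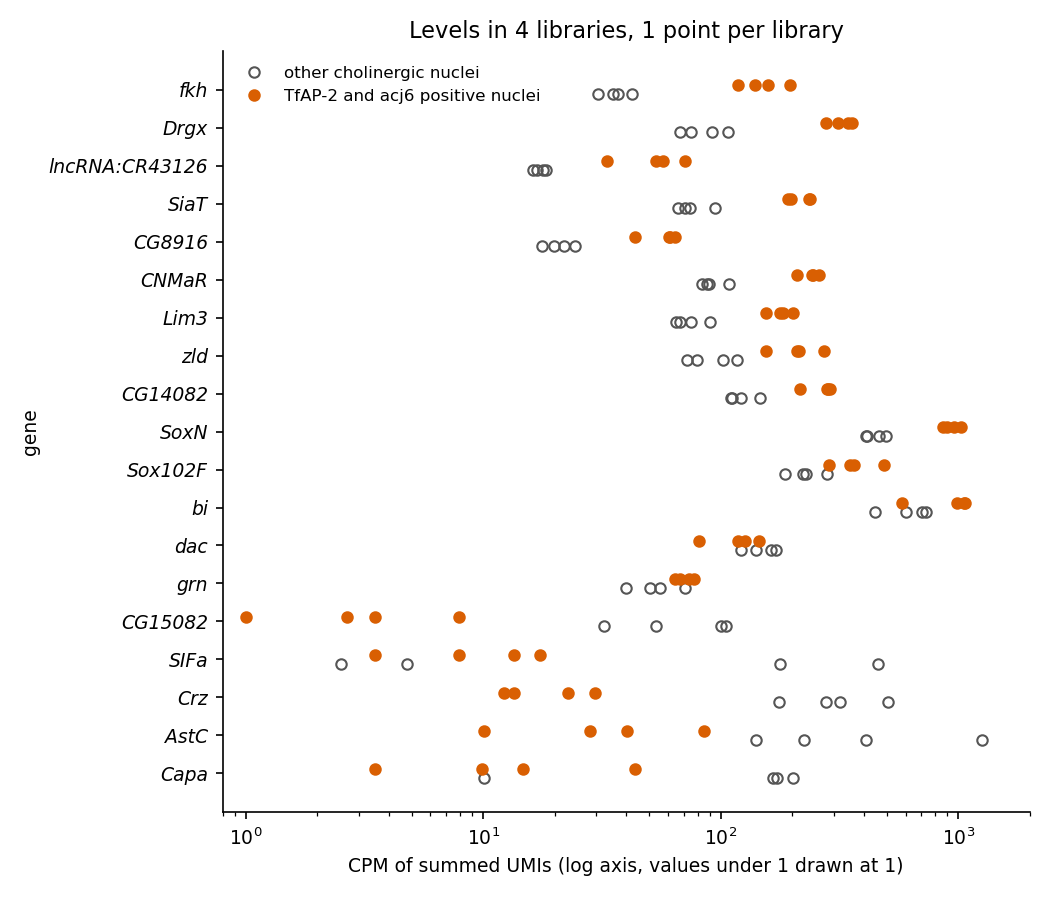
Levels of the 10 genes with the largest increases, of Sox102F, bi, dac and grn, and of the 5 genes with the largest decreases, in CPM of summed UMIs on a log axis. Filled points are the TfAP-2 and acj6 positive nuclei and open points other cholinergic nuclei of the same 4 libraries; for the first 10 genes the filled points lie to the right of all open points, and dac overlaps.

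Neuropeptide genes made up 4 of the 5 largest decreases. Crz, which encodes corazonin, stood at 22.8, 13.5, 29.7 and 12.3 CPM in the selected nuclei and 279, 506, 318 and 176 CPM in other cholinergic nuclei (log2 -3.80, edgeR adjusted p = 6.67e-12). AstC, which encodes allatostatin C, stood at 28.1, 10.1, 85.1 and 40.3 CPM against 223, 141, 1258 and 409 CPM (log2 -3.50, edgeR adjusted p = 5.86e-13). These levels rested on few nuclei: a single nucleus held 39.9 to 85.8% of a library's Crz UMIs and 43.6 to 90.9% of its AstC UMIs in the other cholinergic class. SIFa, which encodes SIFamide, differed in controls and overlapped in exposed libraries, at 17.4, 13.5, 7.92 and 3.50 CPM against 459.6, 178, 4.77 and 2.53 CPM, and was not called by DESeq2 (adjusted p = 0.386), with 97.0% of the female control UMIs of the other class in 1 nucleus. Capa, which encodes capability peptides, stood at 14.7, 43.7, 9.89 and 3.50 CPM against 166, 173, 202 and 10.1 CPM, and its edgeR adjusted p was 0.697 against other cholinergic nuclei matched on UMIs. The fifth was CG15082, between 0 and 7.92 CPM in the selected nuclei and between 32.3 and 106 CPM in the others. Its UMIs in the other class came from 12, 21, 16 and 5 nuclei, and 1 nucleus held 19.3 to 56.9% of a library's. For Capa 1 nucleus of that class held 38.9 to 91.2%.

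Among receptors, nAChRalpha6, a nicotinic acetylcholine receptor subunit, rose from 3951, 2991, 3760.3 and 4074 CPM to 6428, 3744, 5986 and 5618 CPM (log2 0.60, edgeR adjusted p = 5.52e-08), with the male control value inside the range of the other class. Over the nicotinic subunits, of 9 fitted, 1 rose and 0 fell, with a median log2 difference of 0.19, and 9 had a positive difference. Over all 5942 genes fitted, 71 rose (1.19%), 98 fell (1.65%) and 2918 had a positive difference. Of 12 GABA, glutamate and histamine receptor genes 1 rose, CG8916 above. Of 18 muscarinic and monoamine receptor genes 1 fell, the dopamine receptor gene Dop1R2, at 165, 212, 209.8 and 207 CPM against 294, 322, 329 and 312 CPM. Of 20 voltage-gated and potassium channel genes, SLO2 rose (log2 0.72) and Elk fell (log2 -0.60), both encoding potassium channels.

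Cell adhesion genes of the dpr, DIP, beat and side families pair cell surfaces in the optic lobe. Of 52 fitted, 4 rose and 1 fell, with a median log2 difference of 0.051, against 1.19% higher and 1.65% lower over all genes fitted. dpr1 was at 1219.6, 1268, 1314 and 1257 CPM against 634, 678, 717 and 785 CPM, without overlap (log2 0.90, edgeR adjusted p = 7.72e-10). beat-Ia, beat-IIa and beat-IIb also rose, by 0.87, 0.63 and 0.59 on the log2 scale, and DIP-beta fell by 0.93. Of 3 cholinergic genes 0 were called by edgeR or DESeq2 and 3 had an unadjusted p under 0.05. VAChT was at 847, 864, 796 and 586 CPM against 765, 664, 695 and 526 CPM (log2 0.26), under 1.5-fold. Neither edgeR nor DESeq2 called any of 6 pan-neuronal, 12 release machinery or 80 ribosomal protein genes, of which 1, 4 and 21 had an unadjusted p under 0.05.

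Markers of other neurons moved in part, where 1.19% of all genes fitted were higher and 1.65% lower. Of 5 Kenyon cell markers 3 fell: sNPF, which encodes short neuropeptide F (log2 -0.75), the transcription factor gene ey (log2 -0.99) and prt (log2 -1.40). Of 9 markers of other optic lobe and columnar neurons, fkh and the LIM homeodomain gene Lim1 rose, Lim1 by 0.67 from 383, 250.5, 398 and 321 CPM, and vvl, a POU domain factor, fell (log2 -0.68). Of the 22 genes that the study picked on these samples as changed by NaAsO2 in many clusters, 2 rose and 4 fell, and that list is not independent evidence. Its largest decrease was Ms, which encodes myosuppressin, at 145, 161, 85.1 and 40.3 CPM against 631, 588, 475 and 157 CPM. Neither tool called any of 6 photoreceptor, 6 fat body and hemocyte or 5 monoaminergic markers, of which 2, 2 and 1 had an unadjusted p under 0.05 in edgeR.

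The selected nuclei differed among themselves with the number of UMIs of the 2 genes. The 128 nuclei with at least 2 UMIs of each gene had SoxN at 1233 CPM (95% counting interval 1128 to 1345), and the 225 with exactly 1 of each at 782 CPM (703 to 869). Sox102F was at 499.6 CPM (434 to 573) and 304 CPM (255 to 359.7), and grn at 65.8 and 109.5 CPM. Both sets were mixed, with nuclei in 35 and 39 clusters, and their median depth was 2720 and 1769 UMIs. The 446 nuclei with 1 UMI of TfAP-2 and at least 2 of acj6 had Sox102F at 367 CPM (332 to 404). The 48 with at least 2 of TfAP-2 and 1 of acj6 had it at 147 CPM (87.1 to 232), the lowest of all sets. In the same order SoxN was at 863 and 890 CPM and grn at 51.8 and 114 CPM. All sets were pooled over the 4 libraries, so these values are given without a test.

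Mi1 neurons are columnar medulla cells that feed T4 dendrites and are marked by the homeodomain factors bsh and hth. Nuclei with a UMI of each, the 3 zeros and not both TfAP-2 and acj6 are called Mi1-type by this rule alone. They numbered 231, and 3110 genes could be fitted. Higher in the TfAP-2 and acj6 positive nuclei were 106 genes (3.41%) and lower were 97 (3.12%), and DESeq2 called 70 and 63. SoxN (log2 0.97), Sox102F (0.93), bi (1.13) and fkh (2.81) rose here too. The selected nuclei are the same in both comparisons, so this is not separate evidence. The decreases were led by Rh7, a rhodopsin gene, at 59.0, 67.3, 61.3 and 77.0 CPM against 254, 552, 592 and 337 CPM (log2 -2.64, edgeR adjusted p = 6.08e-09), and by CG43078, at 177, 101, 154 and 124 CPM against 846, 993, 1069 and 567 CPM (log2 -2.59, edgeR adjusted p = 9.16e-11). Pka-C3, a catalytic subunit of protein kinase A (log2 -2.14), and trol, the fly perlecan (log2 -1.89), also fell without overlap.

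Among adhesion genes compared with Mi1-type nuclei, of 51 fitted, 10 rose and 2 fell, against 3.41% and 3.12% of all genes fitted. dpr1 was at 1219.6, 1268, 1314 and 1257 CPM against 481, 309, 457 and 575 CPM (log2 1.43, edgeR adjusted p = 9.93e-09). The nicotinic subunits nAChRalpha7 and nAChRalpha1 rose, by 0.89 and 0.82 on the log2 scale, also without overlap. Of 18 muscarinic and monoamine receptor genes 2 rose and 1 fell. The octopamine receptor gene Octalpha2R rose to 1025, 817, 997 and 996 CPM against 603, 397, 451 and 600.0 CPM (log2 0.88, edgeR adjusted p = 4.36e-06) and the muscarinic receptor gene mAChR-B by 0.64 on the log2 scale. Octbeta1R, also an octopamine receptor gene, fell from 762, 761, 753 and 912 CPM to 298, 188, 293 and 233 CPM. ChAT was lower in the selected nuclei, at 226, 336, 267 and 208 CPM against 539, 419, 322 and 263 CPM (edgeR adjusted p = 0.0169). This call was kept in 3 of 6 alternatives. It was lost without female controls (edgeR adjusted p = 0.395), with DESeq2 (adjusted p = 0.125) and with no filter.

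Exposure and the share of nuclei that met the rule were then compared within each sex. As deposited, the share was 1.39% in female controls (95% interval 1.23 to 1.56) and 1.15% in exposed females (1.02 to 1.29), and 0.806% in male controls (0.668 to 0.963) and 1.69% in exposed males (1.45 to 1.96). The shallowest nucleus had 1766 UMIs in exposed males and 500 in each of the other libraries, so the shares as deposited cover different ranges of depth. Thinning lowered the share in each library. Thinned to 1000 UMIs, the shares were 0.756, 0.441, 0.737 and 0.810%, from 132, 55, 135 and 81 nuclei. The exposed share over the control share was then 0.975 in females (95% interval 0.762 to 1.25) and 1.84 in males (1.29 to 2.64). The male control library was the lowest of the 4 at both depths, and the other 3 thinned shares lay within each other's intervals. With 1 library per group these intervals do not cover variation between pools, and the shares of glial, GABAergic and glutamatergic nuclei with both genes, given above, are the background to them.

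**Figure D4:**
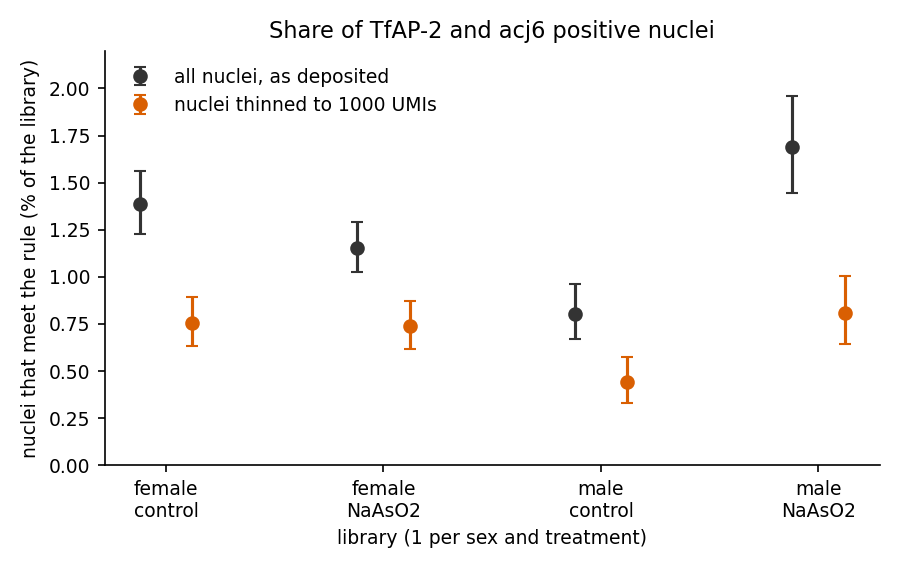
Share of nuclei that met the rule, in percent of each library, as deposited and after thinning to 1000 UMIs. Points are single libraries and bars exact binomial 95% intervals of counting error; male controls are lowest at both depths, and thinning brings the other 3 libraries together.

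NaAsO2 was compared with control in the summed UMIs of the selected nuclei, for 1532 genes with at least 100 UMIs over both libraries of each sex. The median log2 ratio was 0.020 in females and 0.028 in males. In females 14 genes were at least 1.5-fold higher and 15 at least 1.5-fold lower (0.914% and 0.979%), and in males 76 and 181 (4.96% and 11.8%). Past 1.5-fold in the same direction in both sexes were 2 genes higher (0.131%) and 7 lower (0.457%). In opposite directions 4 genes had an increase in females with a decrease in males (0.261%), and 1 had the reverse (0.0653%). These are differences between single libraries, and no gene was tested.

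Hr38, a nuclear receptor induced by neuronal activity, was higher in both exposed libraries. It was counted at 115 UMIs in female controls and 139 in exposed females, and 24 in male controls and 97 in exposed males, which gave log2 ratios of 0.84 (95% interval 0.47 to 1.20) in females and 1.07 (95% interval 0.42 to 1.78) in males. In other cholinergic nuclei its log2 ratios were 0.52 and 0.33. Crk, a signalling adaptor, was the other gene past 1.5-fold in both sexes, at log2 0.64 and 0.59. The next by size were Tk, which encodes tachykinin (0.53 and 0.72), CG14304 (0.53 and 0.87) and Nna1 (0.56 and 0.52), each under 1.5-fold in at least 1 sex. Thinned to 1000 UMIs, Hr38 stood at log2 -0.21 and Tk at -0.20 in males, so both lay on the other side of 0 there.

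Hsp83, the fly Hsp90 chaperone, was lower in both exposed libraries and spread over many nuclei. It was counted at 283 UMIs in female controls and 106 in exposed females, and 156 in male controls and 54 in exposed males, with log2 ratios of -0.85 (95% interval -1.19 to -0.53) in females and -2.47 (95% interval -2.95 to -2.02) in males, and at most 9.26% of a library's UMIs came from 1 nucleus. Other cholinergic nuclei gave -0.56 and -2.19. Several of the other decreases rested on few nuclei. AstA, which encodes allatostatin A, had log2 ratios of -2.61 in females and -4.23 in males, but 1 nucleus held 60.3% of its female control UMIs and 1 held 56.4% of its male control UMIs, and with a ChAT or VAChT UMI also required the female ratio was 0.49. For the noncoding lncRNA:CR34335 (-1.14 and -1.12), 1 nucleus held 69.3% of the female control UMIs, and without the top nucleus of each library the female ratio was 0.49. Msr-110 was lower by a similar amount in both sexes (-0.65 and -0.68).

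Rh2, the opsin of the ocelli, and Arr2, the major arrestin of photoreceptors, were lower in both sexes (-1.09 and -3.18 for Rh2, -0.96 and -2.23 for Arr2), and 1 nucleus held 58.9% of the female control and 45.2% of the male control UMIs of Rh2. Thinned to 1000 UMIs, both lay above 0 in females, Rh2 at 0.27 and Arr2 at 1.55. Obp44a, an odorant binding protein gene of the brain, went the same way (-0.83 and -3.12). In other cholinergic nuclei Arr2 moved by 1.62 in females and -1.55 in males. The 8 photoreceptor genes summed to 849.7, 1248, 855 and 861 CPM in the selected nuclei, with Hdc, which makes their transmitter histamine, at 0 in each library, the 8 glial genes to 726, 639, 596 and 453 CPM, and the 7 fat body and hemocyte genes to 685, 1019, 259 and 383 CPM. These sums were lower in exposed males than in male controls in the selected nuclei, and their part in the gene ratios of males was not tested.

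Cytosolic ribosomal protein genes formed the widest opposite pattern. Of 74 with enough UMIs, 62 were above 0 in females and 74 below 0 in males, with medians of 0.15 and -0.91 on the log2 scale. Over all 1532 genes compared, 837 were above 0 in females and 726 below 0 in males. In males 61 of the 74 passed 1.5-fold lower, against 11.8% of all genes tested, and in females 1 passed 1.5-fold higher. RpL13A passed 1.5-fold in both sexes and was counted at 167 UMIs in female controls and 172 in exposed females, and 91 in male controls and 79 in exposed males, with log2 ratios of 0.60 (95% interval 0.29 to 0.92) in females and -1.15 (95% interval -1.60 to -0.70) in males. The same genes had medians of 0.13 and -0.96 in other cholinergic nuclei, so the pattern was not particular to the selected nuclei. Per nucleus without scaling for depth, the female median was -0.55, RpL13A was at -0.092 in females, and the median of all genes moved to -0.68 in females and 0.48 in males.

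Other genes in opposite directions were COX7B, a cytochrome c oxidase subunit gene (0.68 and -1.42), spab (0.73 and -0.65), and Vmat, the vesicular monoamine transporter gene (0.93 and -0.80). After thinning, 0 genes had this pattern past 1.5-fold and COX7B was at -0.078 in females. With at least 2 UMIs of both genes of the rule, Vmat was at -0.57 in females and 4.53 in males, and spab at 1.51 in males. Vmat marks monoaminergic neurons, and 1 nucleus held 32.2 to 53.7% of its UMIs in each library. The 5 monoaminergic markers summed to 247, 841, 431 and 397 CPM, Vmat included, higher in exposed females and lower in exposed males than in controls, and the part of such cells in its ratios was not tested. The noncoding lncRNA:CR40469 was the gene lower in females and higher in males, at 1092 UMIs in female controls and 81 in exposed females, and 138 in male controls and 680 in exposed males. A single female control nucleus held 70.2% of that library's UMIs of it, and without the top nucleus of each library its log2 ratios were -1.53 and 1.19. Neto, CG12239, CG4238 and CG32066 followed, with female ratios between -0.47 and -0.44 and male ratios between 0.43 and 1.85.

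**Figure D5:**
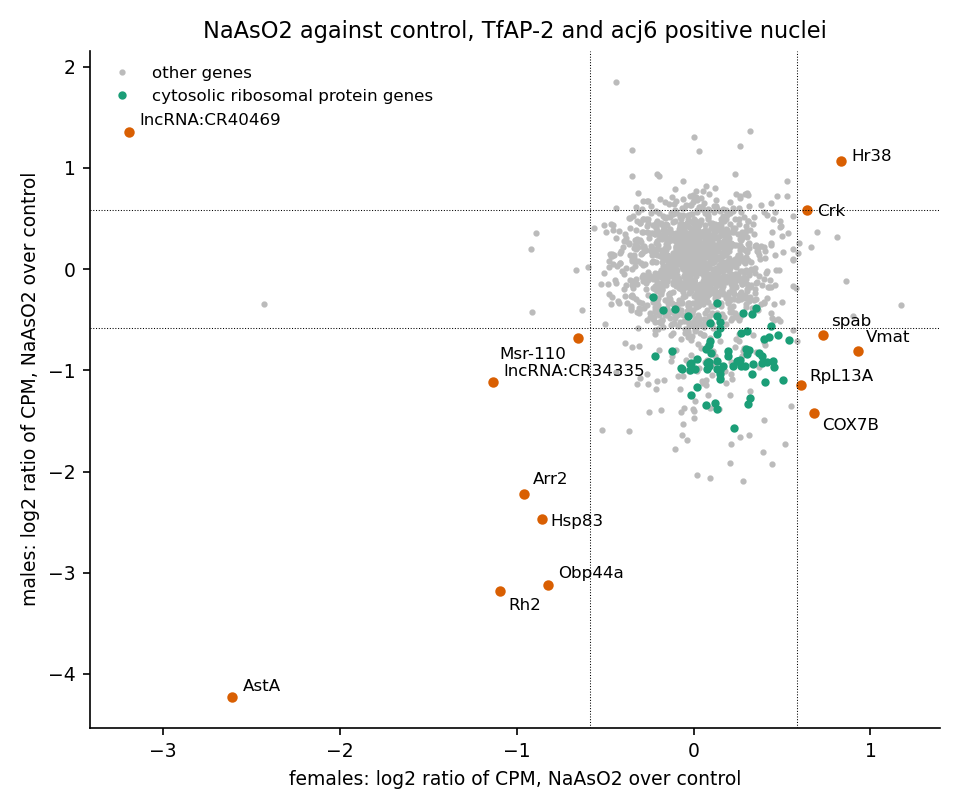
Log2 ratio of CPM, NaAsO2 over control, in females (x axis) and males (y axis) for 1532 genes in the TfAP-2 and acj6 positive nuclei. Green points are cytosolic ribosomal protein genes, orange points the 14 genes past 1.5-fold (dotted lines) in both sexes; most genes lie near 0, and the ribosomal protein genes lie below 0 in males.

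Genes of the known responses to arsenite were mostly too low to compare. Among heat shock genes 1 of 18 had enough UMIs, Hsp83. The inducible Hsp70 copies and Hsp68 together had 4, 3, 1 and 2 UMIs. Among the metal-binding metallothioneins only MtnA could be compared, at 485, 568, 579.8 and 401 CPM, with log2 ratios of 0.26 (95% interval 0.030 to 0.48) in females and -0.50 (95% interval -0.80 to -0.21) in males, and it stayed under 1.5-fold. MtnB, MtnC and MtnD had 0 UMIs in each library. Of the Nrf2, glutathione and antioxidant genes, Gclc, a subunit of the enzyme that starts glutathione synthesis, had log2 ratios of -0.42 and 0.38, and cnc, the fly Nrf2, -0.11 and -0.36, all under 1.5-fold. Of 3 unfolded protein response genes, Hsc70-3, the chaperone BiP, was lower past 1.5-fold in males (-1.14) and not in females (-0.32). puc, a target of JNK signalling, was at -0.26 and 0.43.

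Of 3 T4 and T5 factors with enough UMIs, 1 passed 1.5-fold in males, bi, and 0 in females. SoxN, at 860.4, 1023, 898 and 961 CPM, had log2 ratios of 0.062 (95% interval -0.11 to 0.24) in females and -0.090 (95% interval -0.29 to 0.12) in males. bi was at 0.016 in females and 0.77 (95% interval 0.52 to 1.03) in males, where other cholinergic nuclei gave 0.44. Its levels were 1059, 579, 1071 and 987 CPM, lowest in male controls and close together in the other libraries. ChAT was lower past 1.5-fold in males, at -0.69 (95% interval -1.09 to -0.29), where other cholinergic nuclei, chosen on ChAT, are no comparison, and VAChT was at -0.56 (95% interval -0.80 to -0.32) in males. All 17 voltage-gated and potassium channel genes were above 0 in males, with a median of 0.37 in the selected nuclei and 0.45 in other cholinergic nuclei, and 9 of them in females (median 0.0076). The 21 genes of that list summed to 37145, 28838, 35723 and 38804 CPM in the selected nuclei, again lowest in male controls. Among them 1 passed 1.5-fold in males, Ca-alpha1T, a voltage-gated calcium channel gene (0.79). Of the nicotinic subunits 7 of 8 were above 0 in males, nAChRalpha6 just past 1.5-fold at 0.59, and 4 in females. nAChRalpha6 stood at 6428, 3744, 5986 and 5618 CPM, with male controls lowest. Whether these male ratios reflect exposure or the male control library was not tested. Over all 1532 genes compared, 806 were above 0 in males and 837 in females, and 76 and 14 were past 1.5-fold higher.

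Among 7 activity and ecdysone response genes 3 were past 1.5-fold higher in males and 1 in females, Hr38, against 4.96% and 0.914% of all genes compared. In males the others were br, a transcription factor gene of the ecdysone cascade, at 1.18 (95% interval 0.81 to 1.57), and Eip75B, an ecdysone-induced nuclear receptor gene, at 0.60 (95% interval 0.39 to 0.81). In females br was at -0.35 and Eip75B at 0.047. br stood at 529, 246, 416 and 557 CPM and Eip75B at 1178, 888, 1217 and 1344 CPM, both lowest in male controls. In other cholinergic nuclei the male ratios were 0.17 for br and 0.48 for Eip75B. Of 41 adhesion genes 1 was past 1.5-fold higher in females, DIP-zeta (0.81), and 1 lower, DIP-kappa (-0.66). In males 1 was lower, DIP-theta (-0.77), and 0 higher. Over all genes compared, 0.979% were past 1.5-fold lower in females and 11.8% in males. Of 17 muscarinic and monoamine receptor genes, Oct-TyrR, an octopamine and tyramine receptor gene, was higher in females at 1.17 (95% interval 0.67 to 1.69), and 0 were lower in females. In males 2 were lower, the dopamine receptor gene Dop2R at -0.64 (95% interval -0.81 to -0.47) and the muscarinic receptor gene mAChR-A at -0.63 (95% interval -1.01 to -0.24), and 1 was higher, the serotonin receptor gene 5-HT2B at 0.73 (95% interval 0.081 to 1.43). No gene of these families passed 1.5-fold in the same direction in both sexes apart from Hr38.

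Of the 23 genes that the study picked on these samples, 13 could be compared, and 1 passed 1.5-fold lower in both sexes, Obp44a, with 0 higher in both. Their median log2 ratio was -0.16 in females and 0.14 in males. Because the list was chosen on the same libraries, these counts are not independent evidence of a direction.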

How the data were processed

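Single nuclei from 10 pooled brains per sex and treatment were sequenced as 4 libraries with 10x Genomics chemistry, and the deposited values are UMI counts per gene and nucleus. The authors made these count matrices with Cell Ranger, version 3.1 per the submitters' processing notes, which also name Seurat 3, and 7.0.1 per the file headers. Matrices were taken as deposited, without further filters on nuclei, and the strand rule of the counting is not given in the sources used here. Gene names were matched by identifier to RefSeq annotation of release 6, and no sequence is shown.

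Groups came from the treatment and sex labels. Selected nuclei were summed per library. CPM used the full UMI total of a class, and exposure was compared per sex as a log2 ratio of CPM with an exact conditional binomial 95% interval, and a gene entered with 100 or more UMIs per sex. Shares have exact Clopper-Pearson and levels exact Poisson intervals. Class comparisons used edgeR 4.0.16 (TMM, quasi-likelihood test, library block, Benjamini-Hochberg over all genes fitted) in R 4.3.3 on 8 sums, for genes with at least 10 UMIs in 4 of them, without the genes that define a class (the rule genes, ChAT, or bsh and hth). DESeq2 1.42.0 was an alternative. Clusters came from Louvain grouping on 3000 variable genes and 30 components (igraph 0.11.9, Python 3.11.15), and clusters with a neuronal gene level under 0.750 of that over all nuclei were called low in neuronal genes. Doublets were scored against simulated ones and kept in the main analysis. Scripts were tested on simulated data.

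Named genes were members of 23 lists, the 5 genes with the largest smaller ratio of each exposure pattern, and the 10 largest increases and 5 largest decreases among called genes with at least 50 CPM. The members and lists were chosen with earlier results of these data known. Alternatives were depth, stricter rules, doublets, scaling, filters, other tools and leaving out libraries. Leaving out clusters low in neuronal genes, and the top nucleus of each gene, were chosen after seeing the data.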

Additional observations from a re-analysis of the deposited data

Results flagged for a closer look

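In the TfAP-2 and acj6 positive nuclei, 5 genes and the ribosomal protein median were past 0 in opposite directions in the sexes, and the difference between the sexes was not tested because each group has 1 library. The male log2 ratio minus the female one was -1.73 for Vmat, -2.10 for COX7B, -1.38 for spab, -1.75 for RpL13A and 4.55 for lncRNA:CR40469. For the median of the cytosolic ribosomal protein genes it was -1.06. Mean UMIs per selected nucleus went from 2805 to 1731 in females and from 2477 to 3381 in males, so depth per nucleus also moved in opposite directions. The shallowest nucleus of a library had 1766 UMIs in exposed males and 500 in each of the other libraries. The part of depth in these differences was not tested.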

How the results depend on the processing

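The share of nuclei that met the rule and the counts of genes past 1.5-fold depended on the selection. In the order female control, male control, exposed female and exposed male, the shares were 0.756, 0.441, 0.737 and 0.810% when every nucleus was thinned to 1000 UMIs, 0.198, 0.101, 0.138 and 0.40% with at least 2 UMIs of both genes, and 1.17, 0.645, 0.845 and 1.40% with a ChAT or VAChT UMI also required. Among nuclei with at least 1766 UMIs, the lowest in exposed males, the share was 0.972% in male controls and 1.34% in exposed females. Exposed males stayed above male controls in each of these. The counts of genes past 1.5-fold, in the order higher in both sexes, lower in both, females up with males down, and females down with males up, were 2, 7, 4 and 1. They were 1, 0, 0 and 2 after thinning, 3, 5, 3 and 3 among the deeper nuclei, 2, 2, 0 and 1 with 2 UMIs of both genes, 1, 3, 2 and 1 with a ChAT or VAChT UMI, 2, 8, 4 and 2 without nuclei of high doublet score, 2, 3, 6 and 1 without clusters low in neuronal genes, and 2, 5, 2 and 1 without the top nucleus of each gene. They were 1, 7, 3 and 1 with ratios centred on the median gene, 4, 10, 5 and 2 after scaling nuclei to equal totals, 0, 42, 0 and 432 without scaling for depth, 7, 18, 17 and 6 with 50 UMIs in each sex required, 0, 3, 1 and 1 with 200, and 174, 417, 501 and 133 with no filter beyond 1 UMI in each library. The last 3 change how many genes enter, and the cause of the other shifts was not tested. Some log2 ratios crossed 0. After thinning this held for Hr38 (-0.21), Tk (-0.20) and CG4238 (-0.44) and, upward, CG14459 (0.89) in males, and for lncRNA:CR34335 (0.47), Rh2 (0.27), Arr2 (1.55) and COX7B (-0.078) in females. With 2 UMIs of both genes it held for lncRNA:CR34335 (0.52) and Vmat (-0.57) in females and Vmat (4.53), spab (1.51) and CG4238 (-0.21) in males. With a ChAT or VAChT UMI, AstA in females was at 0.49. In females lncRNA:CR34335 was at 0.79 without clusters low in neuronal genes and 0.49 without its top nuclei. Without scaling for depth, the females' ribosomal protein median (-0.55), Crk (-0.057), COX7B (-0.015) and RpL13A (-0.092) lay below 0. Against other cholinergic nuclei, 71 genes were higher and 98 lower. The counts were 46 and 33 with DESeq2, 43 higher when the selected nuclei also held a ChAT UMI, 52 lower against nuclei matched on UMIs, and 173 lower with no filter. Leaving out 1 library at a time gave 47 to 61 higher and 57 to 97 lower, the lowest of both without exposed females. Without the block for library, which pairs both classes of 1 pool of brains, the counts were 31 and 14, and Sox102F (edgeR adjusted p = 0.159), bi (0.38), SIFa (0.418) and Capa (0.103) were not called. Against Mi1-type nuclei, 106 and 97 genes became 70 and 63 with DESeq2, which lost Pdf (adjusted p = 0.61), and 80 to 102 and 67 to 88 without 1 library. Uncalled in each of these, dac crossed 0 with no filter (0.039) and ranged from -0.16 to 0.026 without 1 library, and grn from -0.53 to 0.52, both highest without female controls. Of 1163 recomputed values, 908 for single genes and 54 for shares, counts and medians kept their direction and call or stayed within their error. Of the shares, counts and medians 56 moved, and of the values for single genes 108 moved, 23 turned direction, 13 lost their call and 1 gained one. No paired analysis was possible because each group of sex and treatment has a single library, so exposure within a sex has no replicate numbers to pair. A fit of exposure with sex as a block, which would assume the same effect in both sexes, was not run.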

Other observations

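Compared with Mi1-type nuclei, the largest increases in the TfAP-2 and acj6 positive nuclei included fuss, a transcriptional regulator of the Ski family, at 96.5, 43.7, 67.3 and 78.8 CPM against 0, 0, 19.3 and 0 CPM (log2 3.71, edgeR adjusted p = 1.16e-04), and TkR99D, a tachykinin receptor gene, (log2 1.68, edgeR adjusted p = 0.00296). The fuss UMIs of the selected nuclei came from only 10, 3, 4 and 10 nuclei, and 1 nucleus held 25.0 to 61.5% of a library's. Drgx rose by 2.19, lncRNA:CR43126 by 2.31, lncRNA:CR45223 by 1.85, CG13579 by 1.73 and CG34155 by 1.70 on the log2 scale. The peptide genes AstA (log2 3.49) and Pdf (log2 1.80) were called higher and Crz (log2 -2.19) lower, from at most 6 UMIs of AstA and 12 of Pdf in a library of the Mi1-type nuclei. In the selected nuclei 1 nucleus held 88.7% of the exposed female Pdf UMIs, and male controls had less Pdf (53.8 CPM) than the Mi1-type nuclei (88.3 CPM). A single nucleus also held 60.3% of the female control AstA UMIs of the selected nuclei.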
